A study of Danio rerio with 6 samples.

Results

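The transcriptome described here is that of whole, uninjected zebrafish embryos at 72 hours post fertilization (hpf), measured on 2 arrays of a series of 6. Total RNA was the starting material for Affymetrix arrays, on which a probe set (a group of short probes for 1 transcript) gives 1 signal per array. The other 4 arrays held embryos injected, up to the 4-cell stage, with 15 uM of a morpholino against the estrogen receptor ERbeta2 (ERbeta2 MO, 2 arrays) or of a control morpholino (coMO, 2 arrays). A morpholino is an antisense oligomer that blocks an RNA. All embryos came from eggs pooled over several aquaria and were raised at 28 °C, and the labels give no strain, sex or number of embryos per pool. The titles of the uninjected samples also carry "15uM", although they name no injected agent. The series asks about a role of ERbeta2 in neuromasts, the sense organs of the lateral line, and the uninjected embryos are its untreated baseline. Their signals were described on their own. The groups' signals were not compared, and the other arrays serve only to set the spread within their own pairs beside that of the uninjected pair.

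Of 15617 probe sets, 115 were controls, and 10795 of the remaining 15502 carried 1 gene symbol. These represented 8793 genes, and the probe set with the highest mean signal stood for a gene that had several. Genes were ranked by the mean of the MAS5 signals (a linear brightness from Affymetrix's own algorithm) of the 2 arrays, so rank 1 is the highest. Where a gene is given a pair of signals, these are those of replicate 1 and of replicate 2, in this order. Probe sets differ in how strongly they bind their target, so the order is one of signal and not of transcript number. In whole embryos a high signal from many cells of a type and from much RNA per cell cannot be told apart. To read the ranking by organ and function, 1413 of the genes (16.1%) were assigned to 36 lists of genes with known roles, each gene to 1 list. For 37 of the top 100 genes, and for 11 of the top 30, the probe set shares the cluster name of the array's design with a probe set of another gene, which makes its identity less certain. In the top 30 these are actc1b, eef1a1l1, rps4x, rpl3, krt4, apoa2, rack1, atp2a1, hspa8, rps15 and ubb, and among the other genes with signals printed below they are apoc1, atp5f1b, bhmt, cirbpa, cldnb, col10a1a, ctrb.1, ctrb.2, dnajb1b, fth1a, hmgb3a, hmgn2, krt8, pde6ha, ptmab, pvalb9, s1pr1, tmsb4x, tpt1, tubb2b and vtg4.

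At this age a zebrafish embryo is around hatching: it swims with a segmented trunk musculature, its heart pumps embryonic red blood cells, and its retina has begun to respond to light. It feeds on yolk lipid, which is exported to the blood as lipoproteins, while the liver, gut and pancreas prepare for the first external food. Ribosomal proteins, translation factors and enzymes of energy metabolism are needed in every cell, and such genes usually lead the mRNA population of a growing animal.

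The signal was concentrated in few genes. The 10 highest genes gave 4.28% of the summed signal of all genes on replicate 1 and 4.61% on replicate 2, the highest 100 gave 24.17% and 25.02%, and the highest 1000 gave 66.2% and 66.5%. Genes below the median together gave 6.48% on replicate 1 and 6.53% on replicate 2. The top gene stood 189.6-fold above the median gene, whose mean signal was 310.8. A place in the top 100 needed a mean of 15060.4, with the next gene at 14714, and a place in the top 10% (879 genes) needed 1924. With signal and rank both on log scales, the curve falls slowly over the first 100 genes and more steeply after them. This shape belongs to the log scale of rank: the mean was 58915 at rank 1, 15060.4 at rank 100 and 1924 at rank 879.

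**Figure D1:**
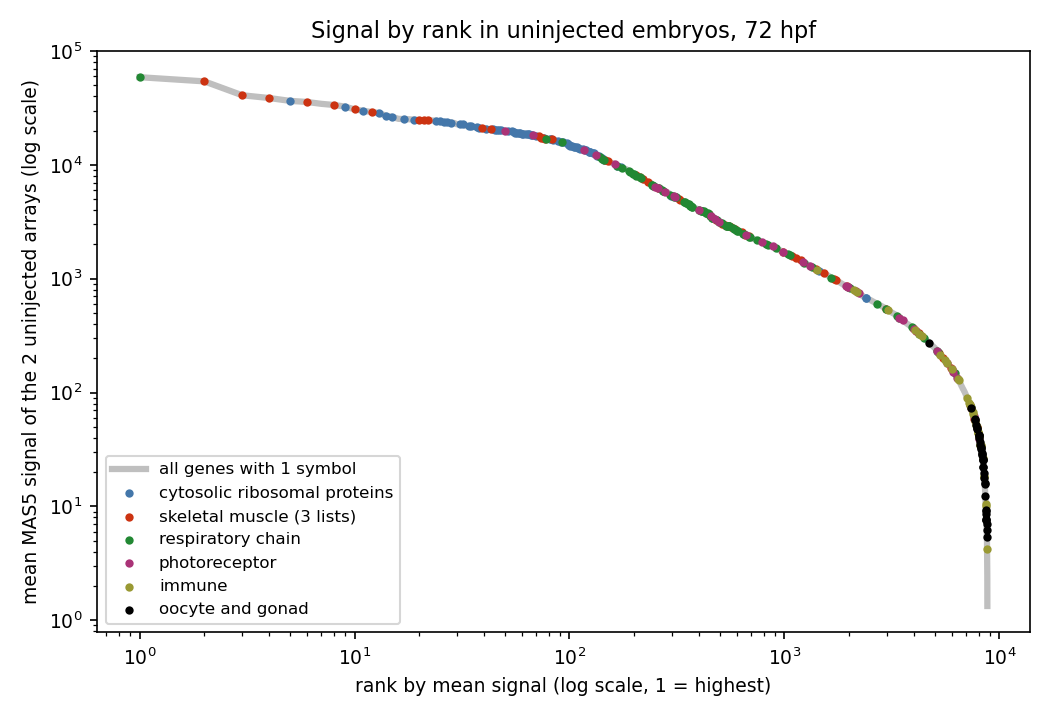
Mean MAS5 signal of the 2 uninjected arrays (log scale) against rank (log scale, 1 = highest) for all 8793 genes, with members of 6 lists in colour. Ribosomal protein and skeletal muscle genes fill most of the first 100 ranks, where 51 and 17 of their genes lie, while all 38 oocyte and gonad genes lie below the median gene.

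Of the 100 highest genes, 99 belonged to a list, and 51 of them encode proteins of the cytosolic ribosome. Skeletal muscle followed with 17 over its 3 lists of thick filament, thin filament, and calcium and energy genes. Translation factors had 4. The respiratory chain, chaperone and redox, keratin and periderm, and actin and tubulin lists had 3 genes each, and glycolysis, photoreceptor, liver, lipoprotein, and cartilage, bone and matrix had 2 each. The neuron, lens, cell cycle, iron storage, and proteasome and ubiquitin lists had 1 each. The 1 gene outside all lists was nme2b.2, a nucleoside diphosphate kinase. The lists were chosen with earlier results of these data known, and COX1 and rplp2b were added after their values were seen. The count of 99 therefore follows in part from how the lists were made. Protein synthesis and skeletal muscle thus held most of the first 100 places.

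Nearly all genes of the cytosolic ribosome had high signals. Of 76 genes for cytosolic ribosomal proteins, 73 (96.1%) lay in the top 10% of genes, the part of the ranking that holds 879 of the 8793 genes, and their median gene stood at the 99.3rd percentile. They gave 15.06 ± 0.17% of the summed signal (SD, n = 2 arrays). The highest were rps2, a protein of the small subunit, at 34627 and 38394, rplp0, the base of the ribosomal stalk, at 32686 and 32386, and rps4x, another small-subunit protein, at 27424 and 32206. The 3 genes outside the top 10% were rpl7l1, faub and rps27l, at ranks 1455, 2386 and 2387. rps27l is a paralog of the ribosomal protein gene rps27 and was the lowest of the list at 673 and 689.

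Factors that work with the ribosome were lower and more varied. eef1a1l1, which brings aminoacyl-tRNA to the ribosome, had 33082 and 35666, eef2b, which drives translocation, had 21456 and 21587, and tpt1, the translationally controlled tumor protein, had 19958 and 19725. Of 72 translation factor genes, 31 lay in the top 10% and 10 below the median. The lowest, eif4e1b, an oocyte form of the cap-binding protein, had 21.3 and 9.28. Of 109 genes for splicing factors and hnRNPs, 39 lay in the top 10% and 9 below the median, led by the cold-inducible RNA-binding proteins cirbpb at 14580.4 and 13246 and cirbpa at 10514 and 10666.

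Skeletal muscle was the organ with the largest share of signal among the organ lists, at 6.49 ± 0.238% over its 3 lists (SD, n = 2). Of its 56 genes, 37 (66.1%) lay in the top 10% and 6 below the median. On the thin filament, actc1b, a sarcomeric actin and the second gene of the whole ranking, had 51546 and 56744. The fast troponins tnnt3b and tnnc2.2, which make contraction depend on calcium, had 32582 and 34616 for tnnt3b and 29804 and 31701 for tnnc2.2. On the thick filament, the fast myosin light chains mylpfa and mylz3 had 37824 and 39511 for mylpfa and 28707 and 29568 for mylz3, and mybphb, a myosin-binding protein, had 17573 and 18123. All of these genes were slightly higher on replicate 2. actc1b had 4 probe sets, whose means ranged between 21.6 and 54145, and the highest is 1 that may bind similar transcripts.

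The highest genes that clear calcium and supply ATP in fast fibres reached similar signals. Their list as a whole was lower, with 11 of 24 genes in the top 10% and 3 below the median. The thick filament list had 9 of 11 in the top 10%, and the thin filament list 17 of 21. The parvalbumins pvalb2 and pvalb1, soluble calcium buffers that speed relaxation, had 37947 and 43840.0 for pvalb2 and 34807 and 36602 for pvalb1. atp2a1, the calcium pump of the fast-fibre sarcoplasmic reticulum, had 23261 and 25888, and the muscle creatine kinases ckmb and ckma had 23733 and 25658 for ckmb and 24432 and 24669 for ckma. smyhc1, a myosin heavy chain of slow fibres, had 4678 and 5178. The heart list was drawn up with 38 entries but holds only 15 ranked genes. Each gene belongs to 1 list, so a gene placed under skeletal muscle is not counted for the heart. At the share of all genes, few genes of so short a list would lie in the top 10%. The heart had no gene of 15 in the top 10% and 8 below the median, which is near an even split. casq2, the calcium store of cardiac muscle, led it at 1475 and 1868, followed by mybpc3, a cardiac myosin-binding protein, at 1264 and 1314, and hand2, a transcription factor of heart and other tissues, at 972 and 750.5. tnnt2a, the cardiac troponin T, was the list's median gene at 208 and 255, and nkx2.5, a cardiac transcription factor, was its lowest at 32.41 and 12.17.

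The mitochondrial genome supplied the top gene. COX1, a subunit of cytochrome c oxidase encoded in mitochondrial DNA, had 56262 and 61568. The nuclear genes of the respiratory chain were lower, led by the ATP synthase subunits atp5f1b at 17141 and 16939 and atp5mc3b at 16482 and 15055. The whole list, COX1 included, stayed together in the upper ranks: 70 of 89 genes (78.7%) lay in the top 10% and 5 below the median. Its median gene, ndufa10 of complex I, had 3861 and 3624. The list gave 4.89 ± 0.125% of the signal (SD, n = 2), or 4.23% without COX1. Of 27 glycolysis genes, 15 lay in the top 10%, led by gapdh at 18471 and 19227, its paralog gapdhs at 16053 and 16462, and the aldolase aldoab at 12659.7 and 12914.

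**Figure D2:**
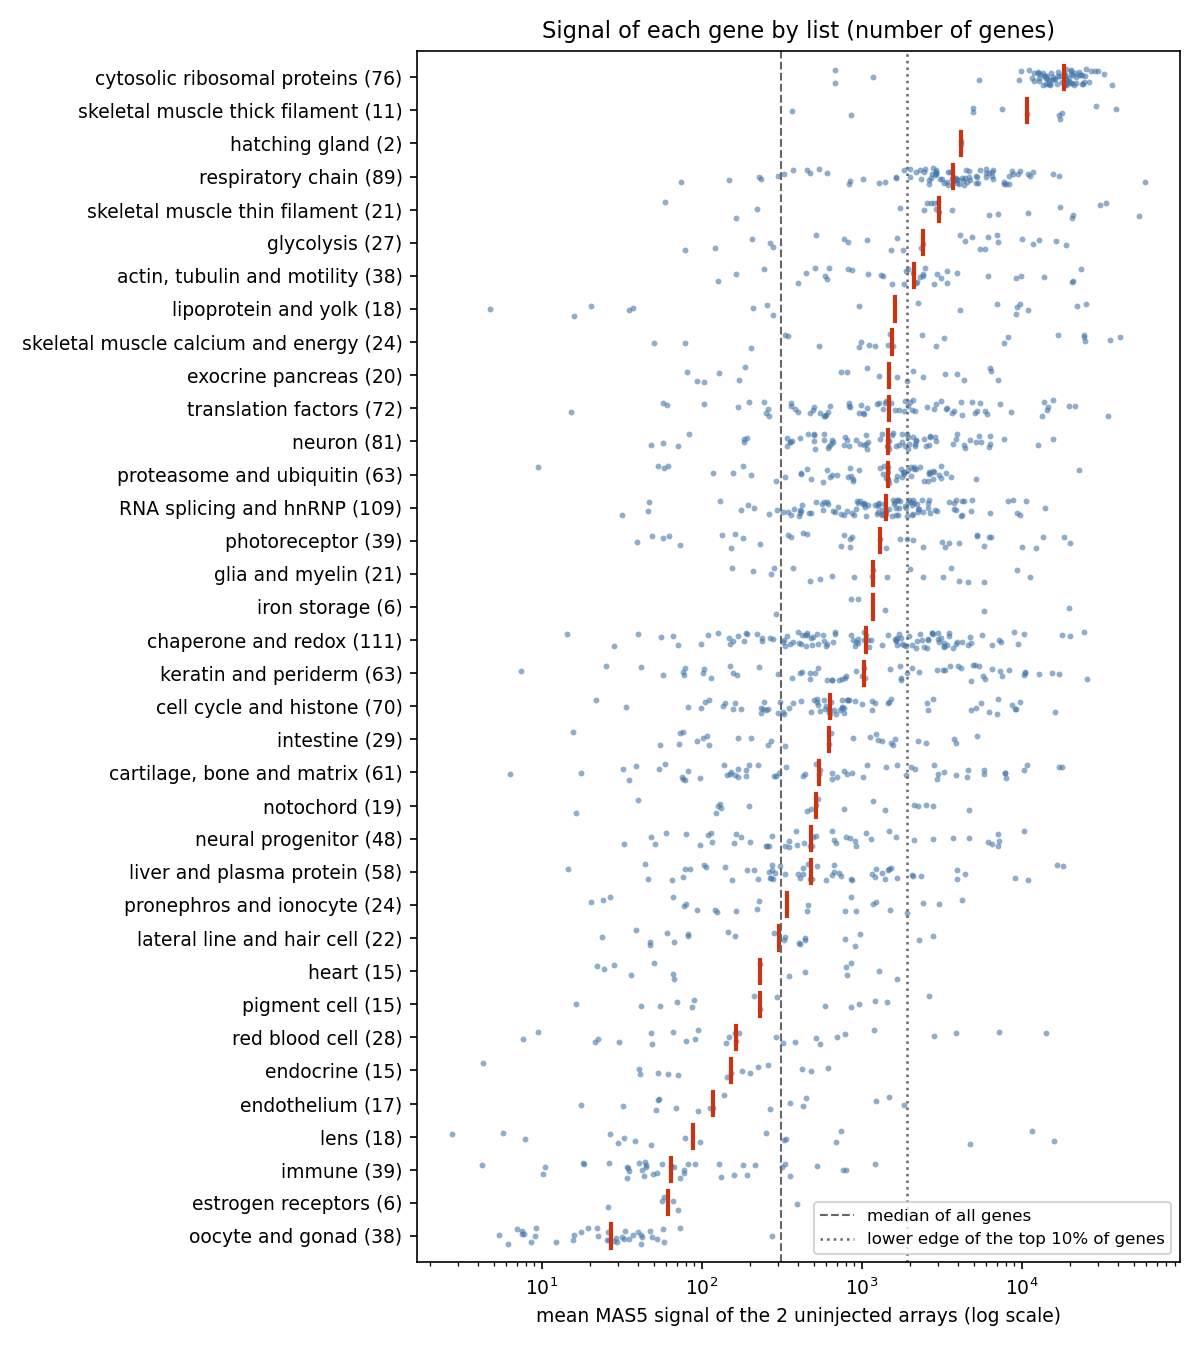
Mean MAS5 signal of the 2 uninjected arrays (log scale) of every gene in a list, 1 row per list with its number of genes, ordered by the list's median (red bar), with a dashed line at the median of all genes and a dotted line at the lower edge of the top 10%. Ribosomal proteins cluster around 18320.1, and the oocyte and gonad genes around 27.2.

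Genes of general housekeeping roles also reached the first 100. hspa8, the constitutive heat shock protein 70, had 25725 and 23336, ubb, a polyubiquitin, had 24196 and 21241, and actb1, a cytoplasmic actin, had 22414 and 24281. ppiaa, a prolyl isomerase of the cyclophilin family, had 19118 and 21083, and hsp90ab1, the constitutive HSP90, had 18075 and 17329.5. The other probe set of hsp90ab1 had a mean of only 7.78, that of ppiaa was 38.7-fold below the highest, and that of ubb 5.31-fold below it. The thymosin tmsb4x, which binds actin monomers, had 19786 and 21453, and fth1a, a ferritin subunit that stores iron, had 19669 and 19805. Of 111 chaperone and redox genes 40, of 63 proteasome and ubiquitin genes 22, and of 38 actin, tubulin and motility genes 21 lay in the top 10%. For the cell cycle and histone genes the count was 14 of 70. They were led by ptmab, a prothymosin, at 16627 and 15831, while the mitotic checkpoint kinase gene bub1bb was the lowest at 36.3 and 7.13.

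Of the single organ lists outside muscle, keratin and periderm had the largest share of signal. krt4, a keratin of the superficial epidermis, had 26344 and 24404, krt1-19e had 15326 and 18733, and krt5 had 15163 and 15900.0. Of 63 keratin and periderm genes, 26 lay in the top 10% and 15 below the median, and they gave 2.37 ± 0.0871% of the signal (SD, n = 2). The connective tissue list was more divided, with 18 of 61 genes in the top 10% and 26 below the median. Its leading genes were col2a1a, the main collagen of cartilage and notochord sheath, at 15135 and 20675, and the type I collagens col1a1a and col1a2, of skin and bone matrix, at 16279 and 17679.6 for col1a1a and 9875 and 11532 for col1a2.

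The eye supplied cone genes and a few lens crystallins. gngt2b, a cone transducin subunit, had 19716 and 20294, opn1sw1, the ultraviolet cone opsin, had 17253 and 19240.3, and pde6ha, a subunit of the cone phosphodiesterase, had 14747 and 12488. Of 39 photoreceptor genes, 16 (41.0%) lay in the top 10% and 10 below the median. The median gene was crx, a transcription factor of photoreceptors, at 1276 and 1305. Among 18 lens genes, crybb1, cryba4 and crygmxl2 lay in the top 10%, at 14480.4 and 17082 for crybb1, 11088 and 12233 for cryba4 and 4244 and 5308 for crygmxl2, and 11 lay below the median.

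Genes listed for nervous tissue were broadly present, with few at the top of the ranking. The neuron, neural progenitor and glia lists gave 1.97%, 0.845% and 0.603% of the signal, which together exceed the share of the keratin and periderm list. Whole embryos do not show which cells gave these signals, and whether the leading genes are limited to nervous tissue was not tested. Of 81 neuron genes, 30 (37.0%) lay in the top 10% and 7 below the median, and 1 was in the top 100. That gene was tubb2b, a beta-tubulin, at 15315 and 15834. marcksl1b, a membrane protein of growing neurites, had 13585 and 11824, and sncb, a synuclein of presynaptic terminals, had 8079.6 and 7323. Of 21 glia and myelin genes 9 lay in the top 10%, led by apoea, an apolipoprotein E, at 10200.3 and 12184, and slc1a2b, a glutamate transporter, at 8897 and 9632. Of 48 neural progenitor genes 10 did, led by the chromatin proteins hmgn2 at 10448 and 10276 and hmgb3a at 6889.7 and 7401, with fabp7a, a fatty-acid binding protein of radial glia, at 6679.9 and 7815.

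Yolk lipid transport and the liver were represented by a few very high genes. apoa2, an apolipoprotein of high-density particles, had 24675 and 25605, apoa1a, the main protein of those particles, had 20369 and 23872, and apoc2, the cofactor of lipoprotein lipase, had 10475 and 11339. Of the 18 lipoprotein and yolk genes 9 lay in the top 10% and 8 below the median. vtg4, a vitellogenin that adult females make for the egg, was the lowest at 3.32 and 6.23. In the liver list, rbp4, the plasma carrier of retinol, had 18408 and 17849, bhmt, a methyltransferase of homocysteine, had 14351 and 18817, and tfa, transferrin, had 10731 and 11055. The rest of that list was spread over the range, with 10 of 58 genes in the top 10%, 22 below the median, and f9a, a clotting factor gene, lowest at 4.41 and 24.7.

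The exocrine pancreas, intestine and endocrine lists had no gene in the top 100. prss1, a trypsin, had 9474 and 4679, cela1.6, an elastase, had 8374 and 4491, and ctrb.1, a chymotrypsin, had 8185 and 4443. Of 20 exocrine pancreas genes 8 lay in the top 10% and 6 below the median, and their median gene stood at percentile 86.6, above the 62.5 of the liver list. Of 29 intestine genes 5 lay in the top 10%. These were led by fabp2, the intestinal fatty-acid binding protein, at 6707 and 3774, with rbp2a, a retinol carrier, at 4181 and 3565 and fabp1b.1, another fatty-acid binding protein, at 4811 and 2764. The endocrine list was drawn up with 43 entries but holds only 15 ranked genes. None of the 15 lay in the top 10%, where few genes of so short a list would lie at the share of all genes. Below the median lay 12 of the 15. Insulin (ins), the second gene of the endocrine list, had 486 and 480.1 after stc2a, a stanniocalcin, at 587 and 638.

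Among the genes ranked, 4 of 28 red blood cell genes (14.3%) lay in the top 10% and 17 (60.7%) below the median. As the top 10% holds 879 of all 8793 genes, the first share is not low for a list of this size. Probe sets with several symbols or none were not ranked, so any blood gene measured only by such probe sets is not counted. hbae3, an embryonic alpha globin, had 11624 and 16702, prdx2, a red-cell peroxiredoxin, had 7490.0 and 7008, and ca2, a carbonic anhydrase, had 4010.2 and 3804. Of 39 immune genes none lay in the top 10% and 32 lay below the median, with lgmn, a lysosomal protease, at 1456 and 946, cebpa, a myeloid transcription factor, at 805 and 783, and lyz, lysozyme, at 822 and 696. Of 17 endothelial genes none lay in the top 10% and 11 lay below the median. In so short a list few genes would lie in the top 10% at the share of all genes. aqp1a.1, an aquaporin, led them at 1958 and 1735, followed by the sphingosine-phosphate receptor s1pr1 at 1548 and 1405 and plvapb, of endothelial diaphragms, at 1208 and 1234.

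The series is about the neuromasts of the lateral line, but the list for lateral line and hair cells also holds oc90, of the inner ear. This list had 2 of 22 genes in the top 10% and 11 below the median. Its median gene lay close to the median of all genes, at the 49.4th percentile. The 2 were the parvalbumins pvalb9 at 2776 and 2761 and pvalb8 at 2505 and 2051, which mark hair cells. cldnb, a claudin of the lateral line primordium and skin, had 965 and 983, and the lowest gene, oc90, an otoconin of the inner ear, had 29.2 and 18.4. The estrogen receptors lay far down. esr2a had 51.8 and 89.6 (rank 7432 of 8793), esr2b had 57.2 and 55.3 (rank 7722) and esr1 had 30.02 and 21.90 (rank 8357). Without detection calls these signals cannot be told from background, and nothing can be read from the spread of esr2a between the arrays.

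Further organ lists were short, so their counts in the top 10% are small. The shares there were 12.5% for pronephros and ionocyte, 26.3% for notochord and 6.67% for pigment cell, with 2 of 2 hatching gland genes. As the top 10% holds 879 of all 8793 genes, only the pigment cell list, with 1 gene of 15, lay below that share. In the pronephros and ionocyte list 3 of 24 genes lay in the top 10%. All 3 serve ion transport: atp1b1a, a subunit of the sodium pump, at 4639 and 3797, atp6v1ba, a subunit of the proton pump, at 2941 and 3170.2, and atp1a1b, the catalytic sodium pump subunit, at 2345 and 2467. Of 15 pigment cell genes, paics, an enzyme of purine synthesis, was in the top 10% at 2977 and 2306, and tyr, tyrosinase, was the lowest at 14.3 and 18.7. The notochord list had 5 of 19 in the top 10%, but its first genes, atp6v1e1b at 4596 and 4772 and copa at 2825 and 2784, encode a proton pump subunit and a coatomer subunit found in all cells. Its lowest was noto, the notochord transcription factor, at 24.7 and 7.98. The hatching gland list held only cd63 at 4616 and 3726 and xbp1 at 4114 and 4168, which many secretory cells express.

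Genes of the ovary and testis served as a reference list of low signals, not as a measured background. All 38 oocyte and gonad genes lay below the median, their median gene stood at percentile 5.22, and their median signal was 27.2 against 310.8 for all genes. star, a cholesterol transporter of steroid synthesis, was the highest at 343 and 206, and zp2l1, an egg coat protein, the lowest at 4.77 and 6.07. On replicate 1 star lay above that array's median gene, at 310.1. Which cells gave these signals was not tested. A list member at such a signal therefore lies in the range of these genes. It is given here as low, not as absent.

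**Figure D3:**
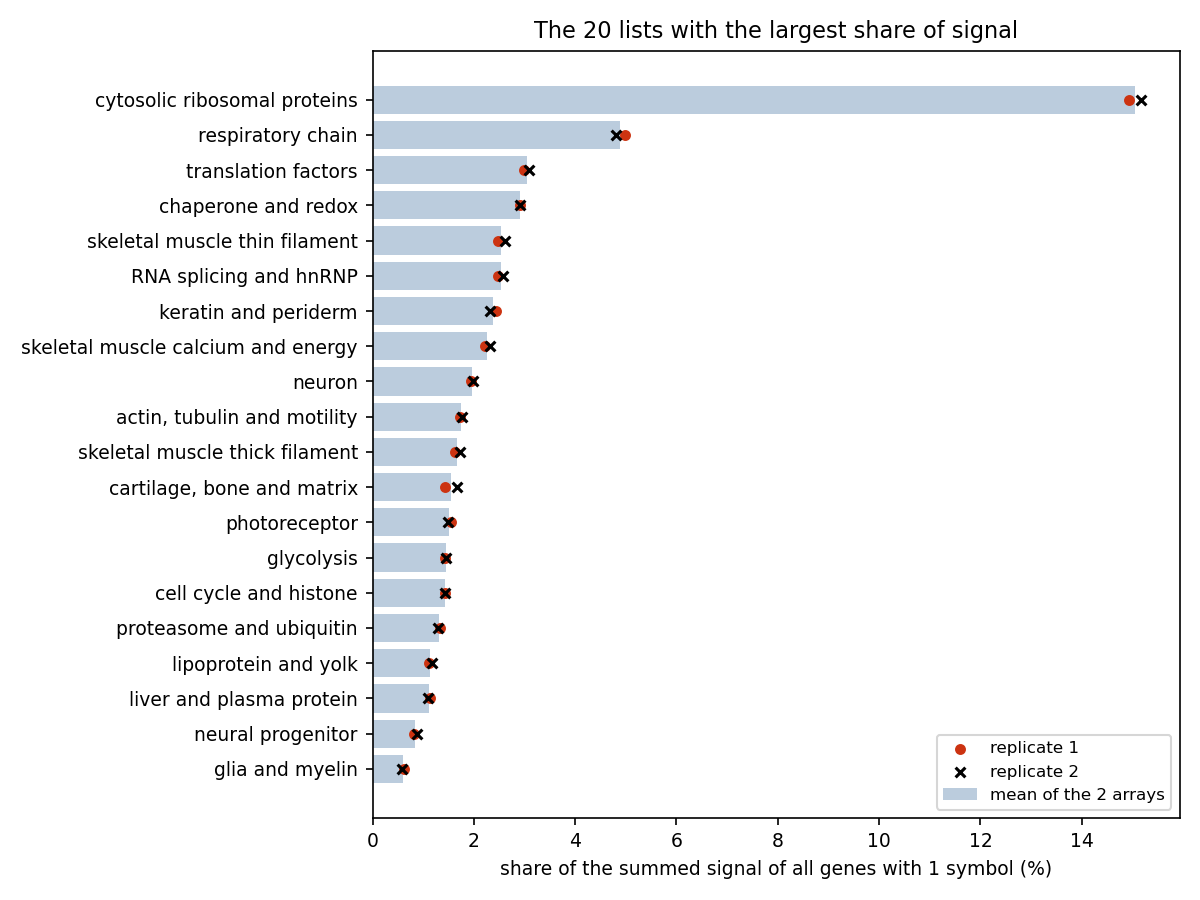
Share of the summed signal of all 8793 genes (%) for the 20 lists with the largest shares, with bars for the mean of the 2 arrays and symbols for replicate 1 and replicate 2. Ribosomal proteins hold 15.06%, the respiratory chain 4.89%, and no other list on the plot exceeds the 3.04% of the translation factors.

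Members of 7 gene families, picked by name after their signals were seen, differed widely among themselves. Of 5 globins, hbae3 and the embryonic beta globin hbbe2 had 11624 and 16702 for hbae3 and 2491 and 3169 for hbbe2, while the adult alpha globin hbaa1 had 60.3 and 71.2 and the adult beta globin hbba2 had 5.91 and 9.27. hbbe3, the gene next to hbbe2 in the gene table, had 10.6 and 8.55, in the range of the oocyte and gonad genes. All 9 parvalbumins lay above the median gene, and 5 lay in the top 10%, from pvalb2 at a mean of 40894 to pvalb6 at 1215.

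Among 6 cone opsins, the ultraviolet opsin opn1sw1, the blue opsin opn1sw2 and the green opsin opn1mw1 lay in the top 10%, at 17253 and 19240.3 for opn1sw1, 9089 and 11080.4 for opn1sw2 and 13196 and 11226 for opn1mw1. opn1mw2, the green opsin next to opn1mw1, had 1349.7 and 341, so the 2 arrays disagreed on it. opn1lw1, a red opsin and the neighbour of opn1sw2, had 79.4 and 45.6, and opn1mw4, another green opsin, had 56.7 and 41.0. No other red opsin was among the genes ranked, so the signal of opn1lw1 does not speak for red opsins in general. Among 13 crystallins, the adjacent beta crystallin genes crybb1 and cryba4 were both high, differing 1.35-fold. 8 crystallins lay below the median, among them the gamma-M crystallins crygm4 at 6.61 and 4.84 and crygm6 at 2.81 and 2.68.

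Of 15 keratins, whose means ran between 25374 for krt4 and 41.8 for krt95, 9 lay in the top 10% and 3 below the median. The neighbours krt1-19e and krt1-19d differed 33.4-fold, krt1-19d having 601 and 419, while the neighbours krt94 and krt93 had 1157 and 894 for krt94 and 53.0 and 62.1 for krt93. The 3 neighbours krt5, krt8 and krt18a.1 were all in the top 10%, at 15163 and 15900.0 for krt5, 7233 and 7365 for krt8 and 3474 and 3146 for krt18a.1. Of 21 collagens 10 lay in the top 10%. These include the cartilage collagens col11a1a at 7229 and 8595, col9a3 at 5354 and 6307, col9a2 at 4918 and 6610.0 and col9a1b at 4356 and 4811, and col10a1a, of maturing cartilage and bone, at 4554 and 4513. Its paralog col10a1b had 61.5 and 56.1.

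Apolipoproteins showed the same mixture in 1 cluster of neighbours. apoc1 had 9039 and 10449.8, apoc4 next to it had 37.4 and 3.04, and apoa2 and apoc2, which follow, were high and differed 2.31-fold. Of 17 apolipoproteins, apoea and apoeb of the glia list and apom of the liver list included, 12 lay in the top 10% and 4 below the median. apobb.1 and apoba, which encode the large structural protein of yolk lipoproteins, had 8837 and 9614 for apobb.1 and 1678 and 2826 for apoba. In the fast troponin I cluster of muscle, tnni2a.4 had 20803 and 21226 and its neighbour tnni2a.3 had 36.3 and 82.0. The exocrine neighbours cpa5 and cpa1, carboxypeptidases, differed 23.3-fold. The ratio between neighbours compares different probe sets, so its size carries their unequal binding as well, and the lower signal may be background.

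**Figure D4:**
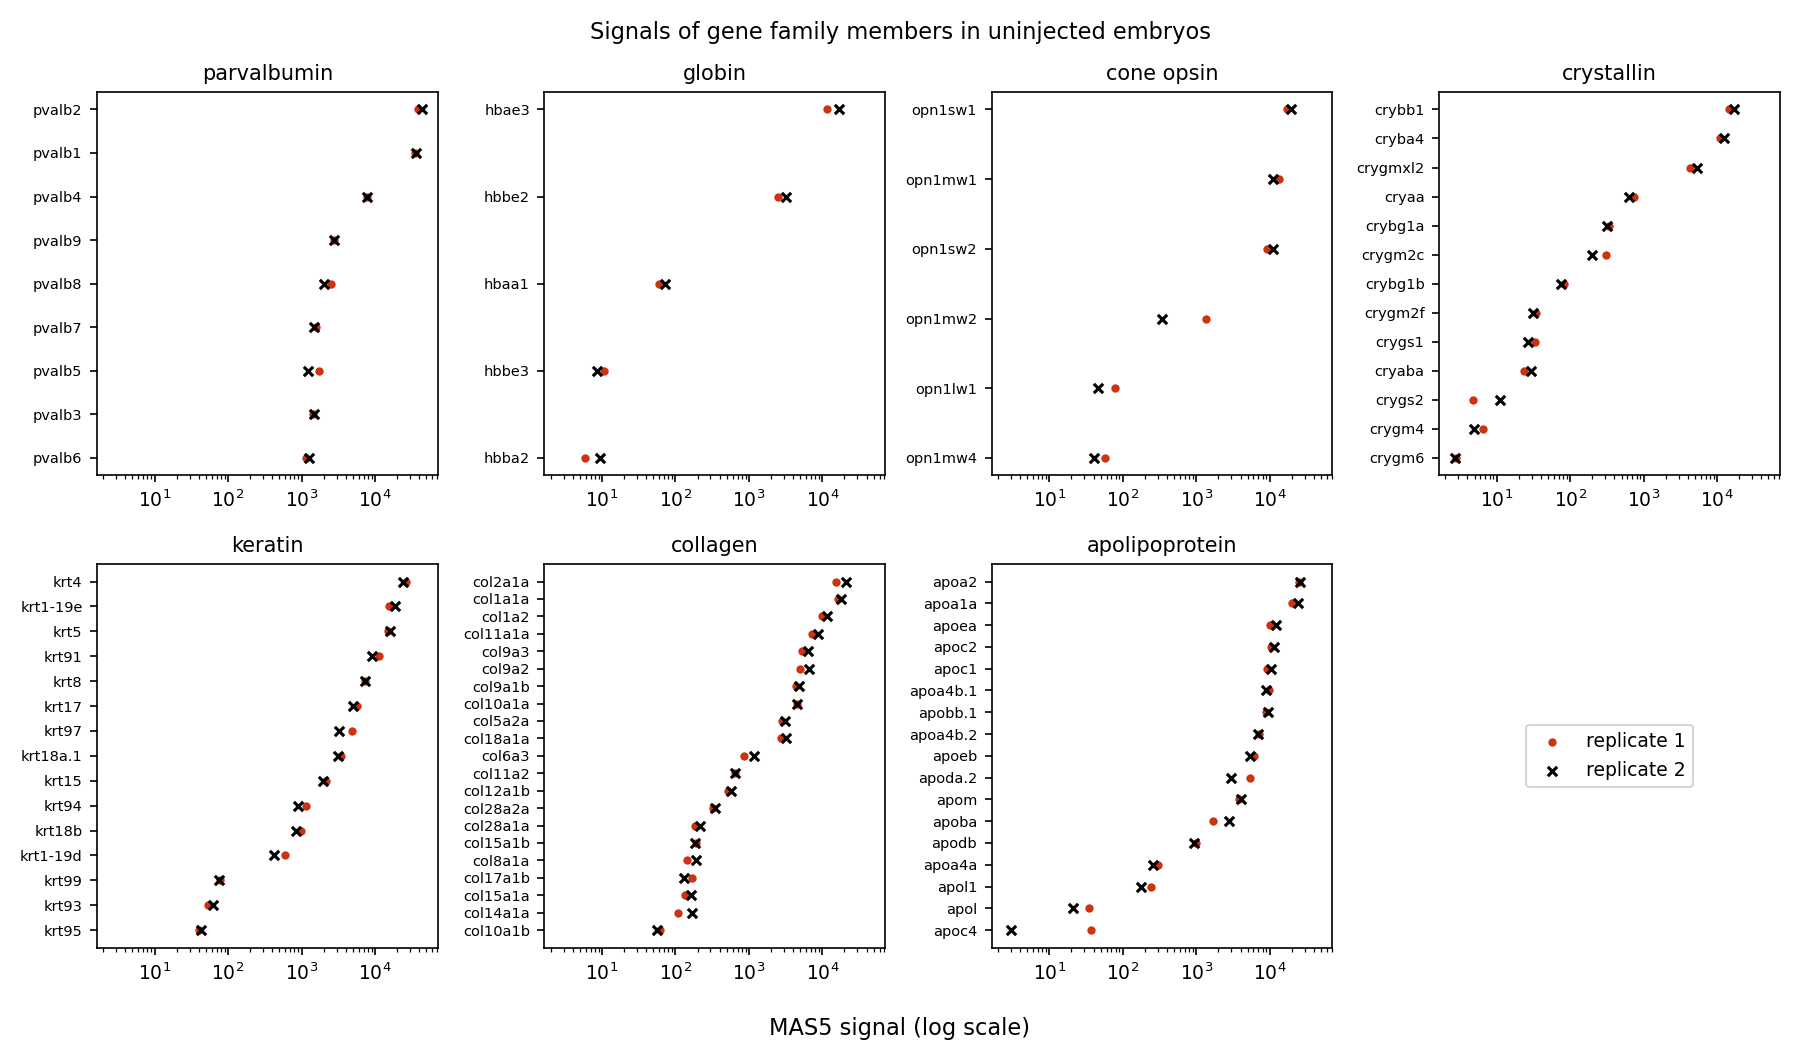
MAS5 signal (log scale) of each member of 7 gene families on replicate 1 (dots) and replicate 2 (crosses), ordered by mean. The parvalbumin means all lie between 1215 (pvalb6) and 40894 (pvalb2), while the other families also have members at signals under 100, and the 2 arrays lie close together for most genes and apart for opn1mw2 and apoc4.

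The 2 arrays agreed closely on which genes were high. Their own top 100 shared 94 genes, and their own top 10% shared 815 of 879 (92.7%). Within the first 30 genes no gene differed more than 1.17-fold between the arrays, and within the first 100 none more than 1.37-fold, the size reached by col2a1a. Over all 8793 genes log2(signal + 32) had a Pearson correlation of 0.986 (across genes, which are not independent replicates). On this scale differences between low signals count for less. The 2%-trimmed mean was 500.1 on both arrays. The control probe sets for gapdh gave a 3′ to 5′ ratio of 1.32 on replicate 1 and 1.24 on replicate 2, and those for acta1 gave 3.54 and 4.26.

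For differences between the arrays, log2(signal + 32) was used, and probe sets in the lowest 25% by mean signal were dropped. On this scale fold changes of low genes are understated. Over 8097 probe sets the median size of the difference was 0.16 in the uninjected pair, a 1.11-fold change, and 95% differed by less than 0.58. In the ERbeta2 MO pair the median was 0.32 and in the coMO pair 0.21, each pair filtered by its own means. Differences past 2-fold were found for 58 probe sets (0.716%) in the uninjected pair, 568 (7.01%) in the ERbeta2 MO pair and 98 (1.21%) in the coMO pair. The uninjected pair had the smallest spread of the 3, with 1 pair per group and hence no test.

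Counted over genes, 46 of 6594 (0.698%) differed more than 2-fold between the uninjected arrays. With no filter on low signals, the median size of the difference was 0.11 in the highest 10% of all genes and 0.26 in the lowest. The share past 2-fold did not follow it, at 1.14% in the highest 10%, between 0.341% and 0.910% in the next 7 parts of equal size, 1.48% in the ninth and 2.05% in the lowest. Genes in the upper ranks that did differ were mostly higher on replicate 1. Among the 4397 genes at or above the median, 32 passed 2-fold, which is 0.728%, of which 29 were higher on replicate 1 and 3 on replicate 2. At the same cutoff, the 58 probe sets past 2-fold also split unevenly, with 47 higher on replicate 1 and 11 on replicate 2. Differences of any size did not lean to replicate 1. Of all 6594 genes 3189 were higher on replicate 1 and 3405 on replicate 2, with a median difference of -0.01.

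Digestive enzymes of the exocrine pancreas made up 10 of these 46 genes. Of 20 genes in the list 17 passed the filter on low signals, and all 17 were higher on replicate 1, with a median difference of 1.19. The elastases ela2l, ela3l and ela2 had 3990.2 and 830.3 for ela2l, 3369 and 825 for ela3l and 6313 and 1577 for ela2. ctrb.2, a chymotrypsin, had 2107 and 466, amy2a, the pancreatic amylase, had 2518 and 801, and cpa5 had 6138 and 2566. prss1, the highest of the list, differed just past 2-fold at 1.01 on the log2 scale, and the smallest difference among the 17 was 0.76. The list gave 0.695% of the summed signal on replicate 1 and 0.297% on replicate 2. Ranked on 1 array at a time, 11 of its genes lay in the top 10% on replicate 1 and 5 on replicate 2.

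The same 17 genes also shifted together within the other pairs. In the ERbeta2 MO pair 0 of the 17 genes were higher on replicate 1 and the median difference was -0.86. In the coMO pair 2 of 17 were higher on replicate 1 and the median was -0.63. The share of all genes past 2-fold was 7.07% in the ERbeta2 MO pair and 0.910% in the coMO pair, and 5 of 17 exocrine genes passed it in each. Such shifts were not limited to the exocrine genes. In the coMO pair 42 of 49 liver genes were higher on replicate 2 with a median of -0.65 and 9 past 2-fold, and 17 of 20 intestine genes with a median of -0.38 and 0 past 2-fold. In the ERbeta2 MO pair 14 of 20 intestine genes were higher on replicate 2, with a median of -0.31, and 31 of 49 liver genes on replicate 1, with a median of 0.15.

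Other digestive genes moved with them in the uninjected pair to a smaller degree. Of 20 intestine genes compared, 18 were higher on replicate 1, with a median difference of 0.38, and 4 (20%) passed 2-fold, against 0.698% of all genes. These were the chitinases chia.1 at 980.1 and 308 and chia.2 at 1767 and 769, plac8.1 at 1906 and 783, and fabp6, an ileal bile acid binding protein, at 1672 and 791. Of 49 liver genes, 33 were higher on replicate 1, with a median of 0.17. The 3 past 2-fold (6.12%) were pck1, of gluconeogenesis, at 918 and 422, the cytochrome P450 cyp3a65 at 419.9 and 130.0, and tat, tyrosine aminotransferase, at 407 and 119.7. Keratin and periderm genes were higher on replicate 1 in 41 of 53, with a median of 0.14.

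Matrix and neural progenitor genes leaned the other way, and not alone. With smaller medians, 46 of 64 cell cycle and histone genes (-0.06) and 36 of 53 skeletal muscle genes (-0.04) were higher on replicate 2. So were 26 of 38 actin, tubulin and motility genes (-0.07) and 69 of 106 splicing and hnRNP genes (-0.04). Of 49 cartilage, bone and matrix genes, 37 were higher on replicate 2, with a median difference of -0.18. serpinh1b, the collagen chaperone, had 2187 and 4352. Of 39 neural progenitor genes, 29 were higher on replicate 2, with a median of -0.17, and dlc, a Delta ligand of the Notch receptor, differed most at 114 and 408. The largest differences in that direction among genes above the median were those of gch2, an enzyme of pteridine pigment synthesis, at 369 and 1353, ttn.2, the giant sarcomere protein titin, at 2938 and 7026, and dnajb1b, a heat shock cochaperone, at 369 and 789. neb, the giant thin-filament protein nebulin, had 2000.4 and 3688. The next highest probe sets of gch2, ttn.2 and dlc leaned the same way by less, with differences of -0.41, -0.64 and -0.26.

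Among genes outside the digestive lists, opn1mw2 was 1.89 higher on replicate 1 on the log2 scale. rpe65a, the retinoid isomerase of the pigment epithelium, had 3014 and 1191 and was higher on replicate 1 on both of its probe sets, mb, myoglobin, had 2167 and 989, and crp3, a C-reactive protein, had 888 and 302. Of the 76 ribosomal protein genes 0 passed 2-fold, which is near the 0.698% of all genes, and the median size of their difference was 0.05, against 0.11 in the highest 10% of all genes, where 73 of them lie. With 2 arrays in the group, the shifts of whole lists have no test.

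**Figure D5:**
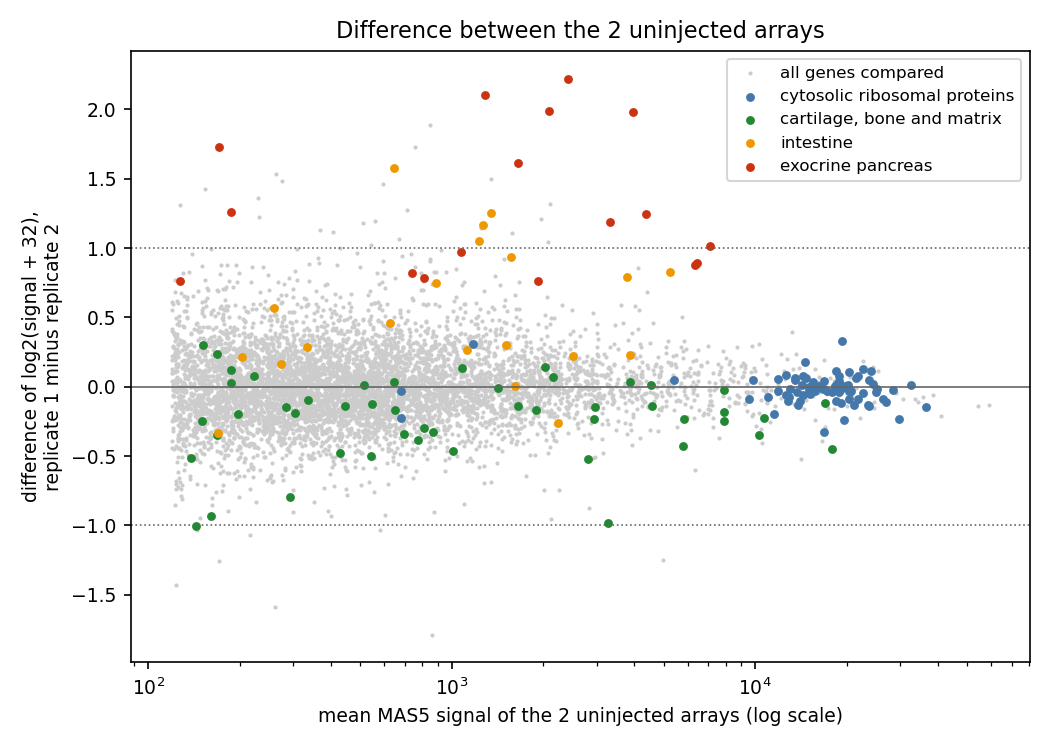
Difference of log2(signal + 32) between replicate 1 and replicate 2 of the uninjected embryos against mean MAS5 signal (log scale) for 6594 genes, with 4 lists in colour and dotted lines at 2-fold. All 17 exocrine pancreas genes lie above 0.76, ribosomal proteins lie near 0, and 37 of 49 cartilage, bone and matrix genes lie below 0.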

How the data were processed

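Values came from the deposited table of 6 arrays, which gives an intensity for each probe set. It is a MAS5 signal, per the submitters' processing notes, which give no version. MAS5 works on each array separately and brings it to a common trimmed mean. From the values, the deposited intensities lie on a linear scale and have a 2%-trimmed mean of 500.1 on both uninjected arrays. Detection calls were not used here, so a low signal may be background. Precision is limited by the 2 arrays. The labels call the 2 arrays biological replicates, made from pooled eggs. The authors' tables of fold ratios between groups were not used, since signals were not compared between groups.

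Probe sets were named through GEO's platform annotation. Of 15502 that are no control, 10795 carried 1 gene symbol, 135 several and 4572 none, and only the first were ranked. The gene table of assembly GRCz12tu matched 10711 by gene number, changed 1 symbol and gave which genes are neighbours (adjacent protein-coding genes). The array names no build, so no coordinates are given. No further normalization was applied to the ranking. Differences between arrays are log2(signal + 32), after leaving out the lowest 25% by mean. The scripts used Python 3.11.15, pandas 2.3.3, NumPy 2.4.6 and matplotlib 3.10.9 and were tested on simulated data.

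The members and the 36 gene lists were chosen with earlier results of these data known. COX1 and rplp2b were added to their lists after their values were seen. Genes were named by rule: the 30 highest, the 3 highest, the median and the lowest of each list, the 10 largest differences each way above the median, and esr1, esr2a and esr2b. Family members, list members past 2-fold, the ribosomal genes outside the top 10%, smyhc1 and nme2b.2 were named after their values were seen. Alternatives were each array alone, the mean or the lowest probe set of a gene, quantile normalization, median centring, the geometric mean, other pseudocounts and filters, all probe sets, and, chosen after seeing the data, no added genes and no _x_at or _s_at probe sets.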

Additional observations from a re-analysis of the deposited data

How the results depend on the processing

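No paired analysis was possible because signals were not compared between groups and the results come from no test. Most counts per list moved little: under quantile normalization and the geometric mean the counts of every list in the top 10% stayed within 1.5 times. Other alternatives changed 2 lists with 5 or more genes in the top 10%. The exocrine pancreas had 8 genes there, and between 5 and 11 when 1 array was left out, 5 without replicate 1. The notochord list had 5, against 3 with the mean of all probe sets of a gene and 2 with the lowest. Small counts also moved. In the top 100, the red blood cell list had 1 gene without replicate 1 (otherwise 0), and the lens list had 0 and the liver list 1 without replicate 2. With the mean of all probe sets and with the lowest, the proteasome and ubiquitin list had 0 there (otherwise 1), the chaperone and redox list 1 (otherwise 3) and the liver list 1 (otherwise 2). The neuron list had 0 with the lowest probe set. The cartilage, bone and matrix list had 1 with the lowest and without _x_at and _s_at probe sets. In the top 10%, the endothelium list had 1 gene without replicate 2 and with the mean or lowest probe set, and the heart list 1 with the lowest. The number of probe sets past 2-fold between the arrays was 58 with a pseudocount of 32 and the lowest 25% left out. It was 89 with a pseudocount of 1, 36 with a pseudocount of 100, 103 with no filter and 38 with the lowest 50% left out.

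Which probe set stands for a gene moved single ranks most. With the lowest probe set, actc1b fell to rank 8272, hsp90ab1 to 8641 and ttn.2 to 8783, against 2, 73 and 323 with the highest. pvalb2 was then the top gene and rps2 the second. The cause of such gaps between probe sets was not tested. With 2 arrays per group no spread of a gene is known well, and signals in the range of the oocyte genes give no order.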

Other observations

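Probe sets without a name held part of the signal. Probe sets with no symbol or with several gave 17.6% of the summed signal of all probe sets other than controls on replicate 1 and 18.1% on replicate 2. When these were ranked together with the named ones, the top 100 held 86 probe sets with 1 symbol, 5 with several and 9 with none. The highest unnamed probe set stood at rank 20, with 29068 on replicate 1 and 26641 on replicate 2, in the range of the ribosomal proteins and the muscle light chains.

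Of 1539 genes with more than 1 probe set, the median ratio of the highest to the lowest was 2.41-fold, and 225 genes (14.6%) exceeded 10-fold. Among the top 100 genes, 13 had several probe sets, with a median ratio of 1.70-fold. COX1 had 3, whose means ranged between 35168 and 58915, and krt1-19e and tubb2b had 2 each that differed 1.21-fold and 1.18-fold. Of these 13, actc1b, hsp90ab1 and ppiaa exceeded 10-fold, and ubb 5-fold.

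Some genes outside all lists differed between the arrays as much as the digestive enzymes. dhrs11b.2, a short-chain dehydrogenase, had 1178 on replicate 1 and 333 on replicate 2, and zgc:111983 had 2011 and 692. In the other direction golgb1, a Golgi matrix protein, had 266 on replicate 1 and 535 on replicate 2, chd2, a chromatin remodeller, had 408 and 802, and ogdha, a subunit of the oxoglutarate dehydrogenase complex, had 264 and 520.0. On the same log2 scale golgb1, chd2 and ogdha differed by -0.93, -0.92 and -0.90, short of 2-fold.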
